A study of Chlamydomonas reinhardtii with 16 samples.

Results

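The 100 genes described here were expressed in the green alga *Chlamydomonas reinhardtii* at their highest level 3 hr after lights on. Their members were chosen from the measured values. FPKM, the fragments of a gene model divided by its length and by the mapped reads of the library, were scaled in all libraries to a common 75th percentile, and the replicates of each time point were averaged. Genes averaging 5 FPKM or more over the 8 time points were ranked by the ratio of the ZT 3 mean plus 1 to the highest mean of the other 7 time points plus 1. The 100 largest ratios were taken from 5011 genes past the mean filter and 17114 gene models in all. ZT (zeitgeber time) is the number of hours since the last dawn.

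RNA came from 16 independent cultures of strain dw15.1 grown in Tris-acetate-phosphate medium, 2 cultures (replicates A and B) for each of 8 time points 3 hr apart. A cycle of 12 hr light and 12 hr dark had been applied to every culture for 48 hr before sampling, and no culture was kept in constant conditions, so a response to light and a response of an internal clock cannot be told apart. The ZT 0 cultures were still dark when collected, at the end of the night, and the ZT 12 cultures were still lit, at the end of the day. The medium contains acetate, so light was not the sole source of energy for these cells. Each library pools whole cells of a culture, in which fewer cells expressing a gene and less RNA per cell cannot be told apart. Fragments behind the values summed to between 5.87e+06 (ZT 12, replicate B) and 2.19e+07 per library, and the correlation across genes between the replicates of each time point was 0.995 to 0.998 for log2 values. As a check of the photosynthetic cultures, the chlorophyll-binding LHCII gene (Cre06.g283950) ranged from 30.9 to 648 FPKM and the Calvin cycle gene PRK1 (Cre12.g554800) from 22.6 to 329 FPKM over the libraries.

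A unicellular alga in a light and dark cycle meets the first hours of light with newly active photosynthesis, which calls for carbon supply, redox control and the building of proteins and metabolites for growth. Cell division in such cultures falls largely around and after dusk. Transcript levels in this alga are shaped by both the light itself and the circadian clock.

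Ratios of the members ran from 4.57 (Cre10.g422300) to 1.95 (Cre17.g732250), with a median of 2.27. All 100 members had both ZT 3 libraries above every other library, which the rule nearly fixes. Just inside the threshold, Cre13.g602650 had a ratio of 1.965 and Cre17.g732250 a ratio of 1.950. Just outside it, Cre02.g110300 had 1.945 and Cre12.g520600 had 1.943, so the list ends within a continuous range. When the ranking was made in replicate A alone, all 100 genes chosen were highest at ZT 3 in replicate B, where their median ratio was 2.28. The 100 chosen in replicate B were all highest at ZT 3 in replicate A, with a median ratio of 2.21. The sets chosen in A and in B shared 89 and 93 genes with the members. Replicates of a time point were closely correlated, so this describes their likeness and is no test of the burst. The members together took 5.03% and 5.17% of the summed scaled FPKM at ZT 3, and 0.345% and 0.353% at ZT 9, where their share was lowest.

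The largest ratio belonged to Cre10.g422300 (chromosome 10, 679313 to 681911, genome version 4.3). Its level was 4.59 and 4.95 FPKM at ZT 0, 33.1 and 30.9 at ZT 3, 6.20 and 6.27 at ZT 6, 0.246 and 0.176 at ZT 9, 0.535 and 0.518 at ZT 12, 0.445 and 0.531 at ZT 15, 1.62 and 1.45 at ZT 18, and 3.71 and 4.10 at ZT 21. The ZT 3 libraries stood far above all others, and the ZT 9 libraries, of which 1 held 7 fragments of this gene, lay lowest. Cre11.g467700 (chromosome 11, 57059 to 62621) had 253 and 248 FPKM at ZT 3, 0.609 and 0.777 at ZT 9, and 59.8 and 63.1 at ZT 21. Its ZT 3 mean was 362-fold its ZT 9 mean. Cre16.g674300 (chromosome 16, 3707529 to 3711120), which the study places in a family with ankyrin repeats, a protein-binding module, had 112 and 105 FPKM at ZT 3 and 0.735 and 1.01 at ZT 9. Cre05.g242000 (chromosome 5, 2231873 to 2238014), of a family with the von Willebrand factor A domain, another protein-binding module, had 116 and 121 FPKM at ZT 3 and 0.580 and 0.630 at ZT 9. The other 6 of the 10 largest ratios, from 3.74 to 3.55, were those of Cre12.g498550, Cre02.g129000, Cre01.g050950, Cre02.g076300, Cre07.g313700 and Cre06.g300700, for which no function was given in the sources used here. Relative to its level, Cre02.g076300 had the largest difference between ZT 3 replicates of all members, with 71.8 and 91.8 FPKM, a ratio of 1.28.

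**Figure D1:**
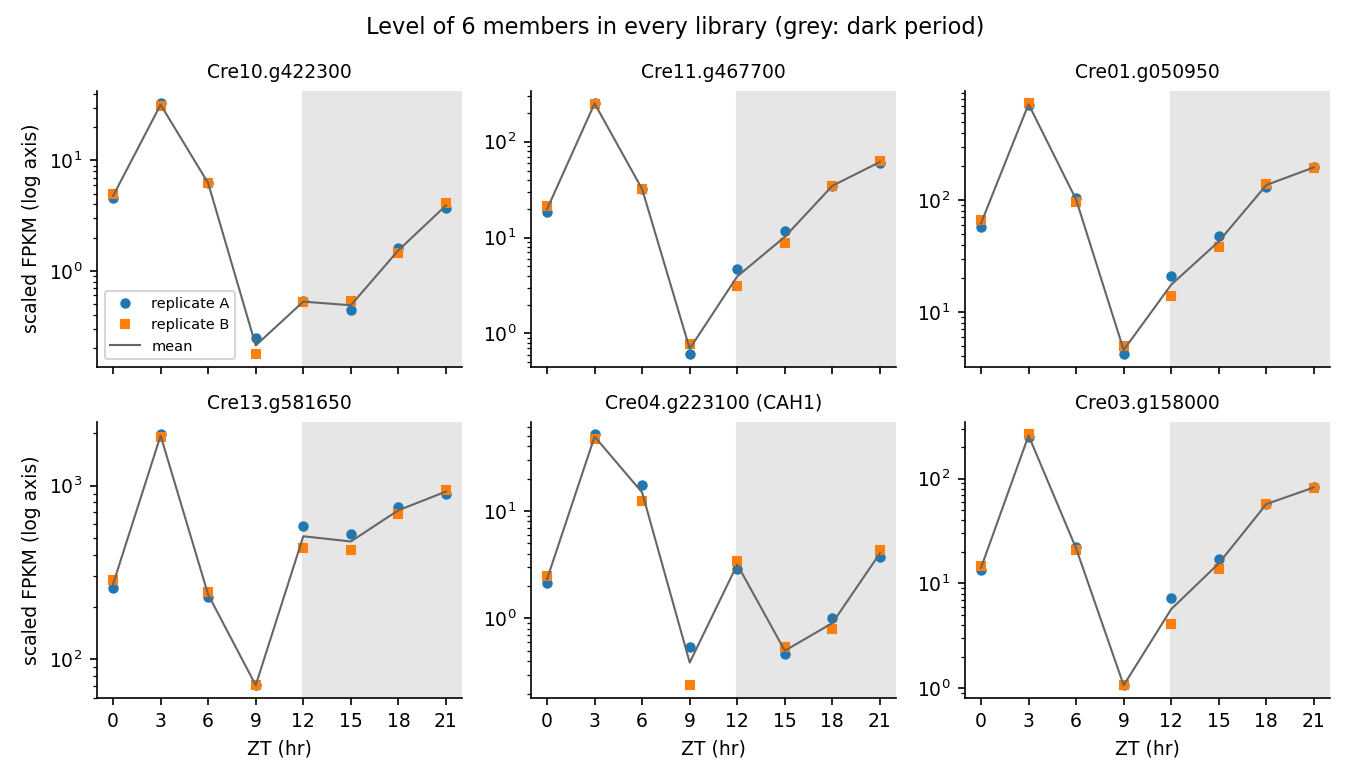
Scaled FPKM on a log axis against ZT in hr for 6 members, with a point for each library of replicates A and B, a line through the means and the dark period in grey. All 6 are highest at ZT 3 and lowest at ZT 9, and climb again between ZT 15 and ZT 21; Cre11.g467700 stood at 253 and 248 FPKM at ZT 3 and at 0.609 and 0.777 FPKM at ZT 9.

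In level at ZT 3, the members ranged from 13.1 to 1940 FPKM with a median of 80.1. The highest was Cre13.g581650 (chromosome 13, 2675652 to 2677261), with 256 and 286 FPKM at ZT 0, 1975 and 1905 at ZT 3, 229 and 242 at ZT 6, 70.9 and 70.8 at ZT 9, 587 and 435 at ZT 12, 528 and 425 at ZT 15, 757 and 685 at ZT 18, and 900 and 947 at ZT 21. Unlike that of Cre10.g422300, its level at ZT 12 was above that at ZT 6 in every library. The next highest were Cre17.g734450 (816 ± 33.2 FPKM at ZT 3), Cre01.g017300 (793 ± 6.03), Cre01.g050950 (721 ± 23.5) and Cre01.g015350 (537 ± 4.96; SD, n = 2 each). Of these, Cre01.g015350 belongs to the family of short-chain dehydrogenases, enzymes that oxidize or reduce small molecules with a nicotinamide cofactor.

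A sharp burst was not the whole pattern. Relative to its own ZT 3 mean, the median member stood at 18.8% at ZT 0, 29.5% at ZT 6, 6.34% at ZT 9, 16.3% at ZT 12, 19.6% at ZT 15, 29.4% at ZT 18 and 39.4% at ZT 21. The level was thus lowest late in the light period, climbed through the night, and was lower again just before lights on than 3 hr earlier. The lowest mean fell at ZT 9 in 84 members, at ZT 12 in 11, at ZT 15 in 4 and at ZT 0 in 1. The highest mean other than that of ZT 3 fell at ZT 21 in 75 members, at ZT 6 in 19, at ZT 0 in 5 and at ZT 18 in 1. In the 760 other genes past the mean filter that were highest at ZT 3, the lowest mean fell at ZT 9 in 24.1% and the second highest at ZT 21 in 31.7%. The highest other mean was between 19.5% and 50.0% of the ZT 3 mean, so the members were expressed at other times too and a burst found only after lights on describes their rank.

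**Figure D2:**
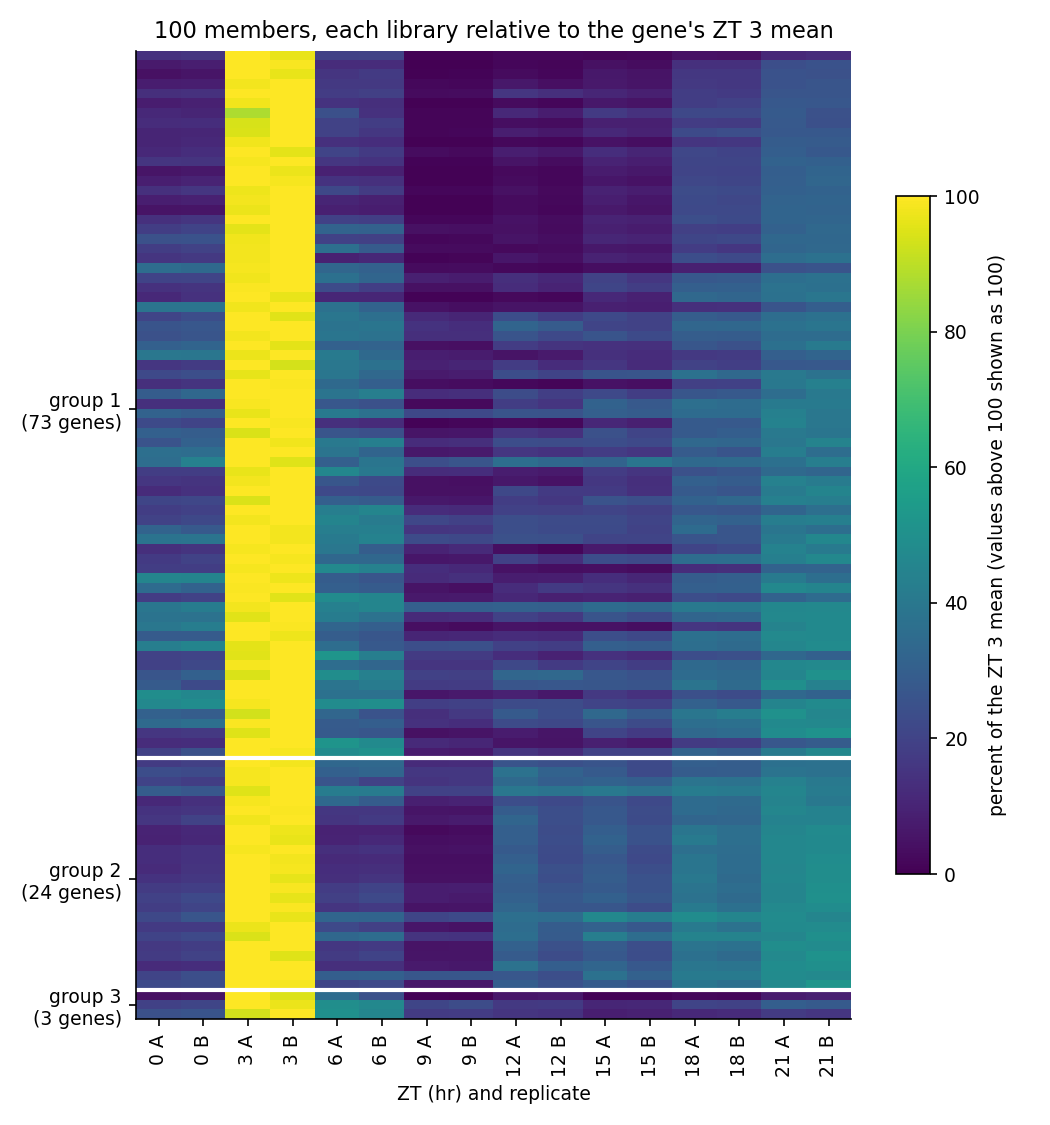
Level of each of the 100 members (rows, in 3 groups by shape, each ordered by ratio) in each of the 16 libraries (columns, ZT in hr and replicate) as percent of the gene's ZT 3 mean. The ZT 3 columns are brightest in every row, the ZT 9 columns darkest in most, and the ZT 21 columns are second brightest in 75 rows by their means.

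The changes between time points other than ZT 3 were tested with limma on log2(FPKM + 1) in 12153 genes averaging 1 FPKM or more, all 100 members among them, with p-values adjusted by Benjamini-Hochberg over all genes and called under 0.05. The ZT 3 values enter none of these differences, although the rule set a ceiling on every other time point. They do enter the estimate of the spread, in a fit of all 16 libraries. The rule's mean of 5 FPKM or more also included ZT 3. Members that averaged under 5 FPKM over the other time points passed it only through ZT 3. These were Cre10.g422300, Cre04.g223100, Cre13.g566000, Cre01.g061900, Cre07.g334350, Cre10.g430150 and Cre56.g791100. They are included in the counts and named changes below, which for them describe genes that ZT 3 itself let in. All 100 members differed among the 7 other time points, and so did 98.8% of all genes tested, so this count says nothing particular about the members.

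At ZT 0, the end of the night, 87 members were lower than at ZT 21 and 7 were higher, whereas 34.2% of all genes tested were lower and 33.0% higher. The median difference of the members was -0.95 on the log2 scale, and that of all genes was -0.0029. The largest fall was that of Cre03.g158000, of a family of class III aminotransferases, which move amino groups between metabolites. It had 13.5 and 14.6 FPKM at ZT 0 and 82.9 and 81.9 FPKM at ZT 21, a log2 difference of -2.47 ± 0.16 (SE, limma adjusted p = 3.85e-09). The libraries of the time points did not overlap. Cre02.g085450 followed with 13.9 and 16.4 FPKM at ZT 0 and 75.6 and 81.5 FPKM at ZT 21 (-2.30 ± 0.12, limma adjusted p = 8.65e-10). Of the 7 members that rose, Cre01.g058600 had 13.9 and 13.1 FPKM at ZT 0 against 9.54 and 8.91 at ZT 21 (0.50 ± 0.10, limma adjusted p = 4.85e-04), and Cre13.g566000 had 4.18 and 4.34 FPKM at ZT 0 against 2.93 and 2.66 at ZT 21 (0.47 ± 0.08, limma adjusted p = 9.93e-05). Cre10.g422300, with the largest ratio, was also higher at ZT 0, by 0.23 ± 0.07 (limma adjusted p = 0.0127). Without replicate B of ZT 0, 4 members were higher. Both ZT 0 libraries lay below both ZT 21 libraries in 90 members and in 42.8% of all genes tested. The 760 other genes highest at ZT 3 leaned the same way, with 50.1% called lower and 15.7% called higher. Their difference from the members was not tested.

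At ZT 6, 59 members were higher than at ZT 0 and 10 were lower, while 36.4% of all genes tested were higher and 37.0% lower. Of the 760 other genes that peaked at the same time as the members, 50% were called higher and 18.2% lower. Their median difference was 0.22, and their difference from the members was not tested. The median difference was 0.39 in the members, -0.01 in all genes tested and 0.18 in all genes averaging 5 FPKM or more. The split of the members depended on the scaling. With FPKM as deposited, which lowers the median of all genes in this comparison from -0.01 to -0.32, 30 members were higher and 39 lower. The largest rises were those of Cre04.g223100 (2.24 ± 0.14, limma adjusted p = 2.01e-09) and Cre13.g602650, which had 26.0 and 24.0 FPKM at ZT 6 and 6.31 and 6.57 at ZT 0 (1.80 ± 0.08, limma adjusted p = 7.09e-11). The largest falls were those of Cre05.g246800, with 24.1 and 21.5 FPKM at ZT 6 and 39.4 and 36.3 at ZT 0 (-0.71 ± 0.14, limma adjusted p = 3.87e-04), and Cre06.g269750, with 13.3 and 12.1 FPKM at ZT 6 and 20.8 and 20.7 at ZT 0 (-0.67 ± 0.09, limma adjusted p = 6.59e-06).

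At ZT 9, 99 members were lower than at ZT 6 and 0 were higher, where 28.8% of all genes tested were lower and 34.6% higher. Of the 760 other genes that peaked at the same time as the members, 61.4% were called lower and 12.2% higher. These genes leaned the same way, with a median difference of -0.42, and their difference from the members was not tested. In all 100 members both ZT 9 libraries lay below both ZT 6 libraries, as they did in 36.8% of all genes tested. The median difference was -1.70 in the members, 0.04 in all genes tested and -0.09 in all genes averaging 5 FPKM or more. Cre11.g467700 fell most, with 0.609 and 0.777 FPKM at ZT 9 and 31.8 and 32.2 at ZT 6 (-4.29 ± 0.14, limma adjusted p = 6.75e-12). Cre01.g050950 had 4.19 and 4.93 FPKM at ZT 9 and 105 and 97.0 at ZT 6 (-4.20 ± 0.15, limma adjusted p = 1.88e-11). The member that was not called, Cre12.g513950, had 5.91 and 5.88 FPKM at ZT 9 and 6.57 and 6.82 at ZT 6 (limma adjusted p = 0.132), and was named after its values were seen.

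At ZT 12, still in the light, 80 members were higher than at ZT 9 and 11 were lower, against 28.6% of all genes tested that were higher and 42.8% that were lower. The median difference was 0.86 in the members and -0.12 in all genes. Of the 760 other genes highest at ZT 3, 32.8% were called higher and 35.8% lower. The members took 1.42% of the summed FPKM in replicate A of ZT 12 and 1.17% in replicate B, the shallowest library, without which 80 members were likewise higher and 11 lower. Cre03.g195650 rose most, with 92.9 and 71.9 FPKM at ZT 12 and 8.33 and 9.97 at ZT 9 (3.03 ± 0.12, limma adjusted p = 1.52e-11). Cre13.g581650, the most abundant member, rose by 2.82 ± 0.12 (limma adjusted p = 4.96e-11). In the other direction, Cre09.g397250 had 2.64 and 1.93 FPKM at ZT 12 and 7.10 and 6.20 at ZT 9 (-1.23 ± 0.10, limma adjusted p = 7.39e-08), and Cre01.g061900 had 0.667 and 0.329 FPKM at ZT 12 and 1.88 and 2.24 at ZT 9 (-1.04 ± 0.12, limma adjusted p = 2.66e-06). The rise at ZT 12 therefore began before lights off in most members but not in all.

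At ZT 15, 48 members were higher than at ZT 12 and 12 were lower, beside 34.2% of all genes tested that were higher and 31.9% that were lower. This was the comparison in which the members stood nearest to all genes tested, with a median difference of 0.16. With FPKM as deposited 7 members were lower. Cre12.g490500 rose most, with 26.7 and 21.6 FPKM at ZT 15 and 6.27 and 4.07 at ZT 12 (2.04 ± 0.14, limma adjusted p = 8.64e-09), followed by Cre05.g246800 (1.80 ± 0.14, limma adjusted p = 4.47e-08). Cre04.g223100 fell most (-1.47 ± 0.14, limma adjusted p = 3.65e-07), and next was Cre03.g158900, with 21.3 and 20.5 FPKM at ZT 15 and 33.3 and 29.6 at ZT 12 (-0.56 ± 0.07, limma adjusted p = 7.78e-06). Cre03.g158900 is of the family of 2-oxoacid dehydrogenase acyltransferases, the core subunits of complexes such as pyruvate dehydrogenase.

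Between the early and the late night, 97 members were higher at ZT 21 than at ZT 15 and 0 were lower, where 29.4% of all genes tested were higher and 28.7% lower. The median difference was 0.95 in the members. Cre01.g015350, the abundant short-chain dehydrogenase, had 216 and 234 FPKM at ZT 21 and 27.1 and 21.2 at ZT 15 (3.17 ± 0.14, limma adjusted p = 2.37e-10). Cre06.g267600 had 12.7 and 13.4 FPKM at ZT 21 and 1.37 and 0.996 at ZT 15 (2.69 ± 0.09, limma adjusted p = 2.34e-11). The 3 members not called, named after their values were seen, were Cre03.g197750, Cre01.g002500 and Cre07.g339700, with limma adjusted p of 0.274, 0.0853 and 0.510. The 760 other genes highest at ZT 3 leaned the same way, with 68.9% called higher and 2.24% called lower at ZT 21, and the difference between them and the members was not tested.

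**Figure D3:**
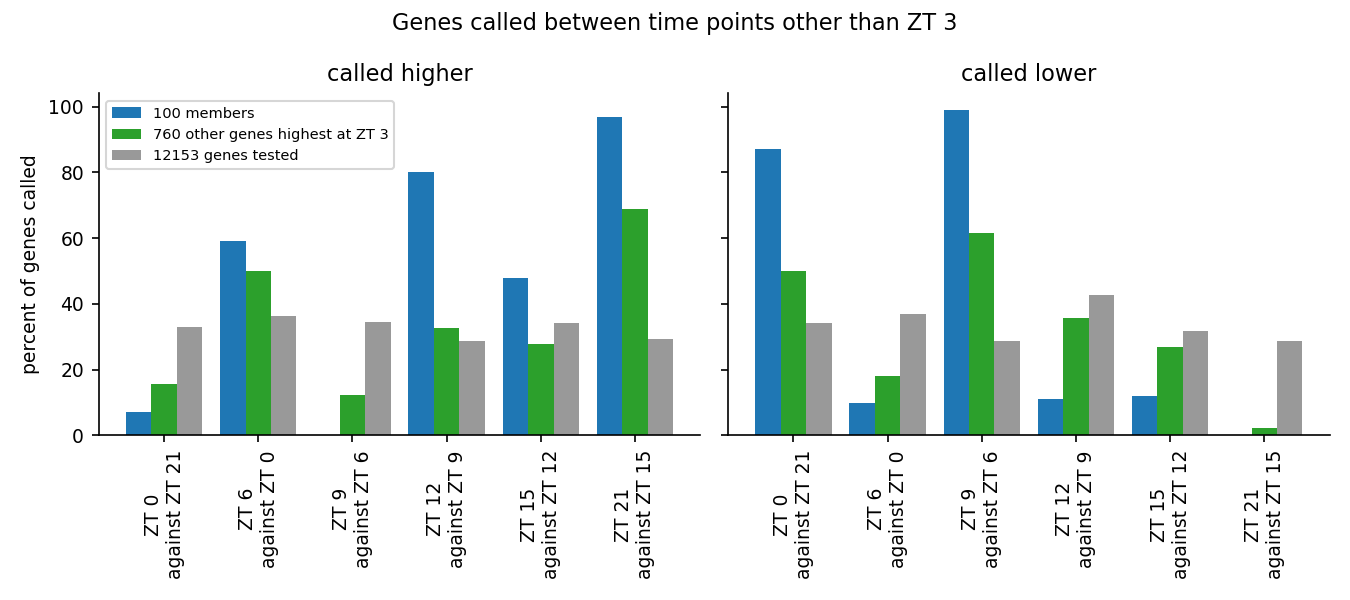
Percent of genes called higher (left) or lower (right) by limma between time points other than ZT 3, for the 100 members, the 760 other genes highest at ZT 3 and the 12153 genes tested. Members reach 99% called lower at ZT 9 against ZT 6 and 97% called higher at ZT 21 against ZT 15, where all genes tested stand at 28.8% and 29.4%.

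Members differed among themselves in how they left the trough. Average linkage on the correlation of log2(FPKM + 1) over the 16 libraries was cut into 3 groups, which are a description with no test because the same values formed them. The first group of 73 members stood at a median of 9.91% of the ZT 3 mean at ZT 12, 14.5% at ZT 15, 26.2% at ZT 18 and 37.3% at ZT 21, a gradual climb. The second group of 24 stood at 27.8% at ZT 12 and 27.1% at ZT 15 before reaching 37.6% at ZT 18 and 47.5% at ZT 21, a step followed by a plateau. In 19 of these 24 the ZT 12 mean was above the ZT 6 mean, which held in 1 of the 73. The second group was the more abundant, with a median ZT 3 mean of 229 FPKM beside 63.4 FPKM in the first, and its ratios spanned only 2.00 to 2.67 beside 1.95 to 4.57. Its gene models were shorter, with a median span of 2325 bp beside 3427 bp. Cre13.g581650, Cre17.g734450, Cre01.g017300 and Cre03.g195650 are in this second group. The third group held Cre04.g223100, Cre13.g602450 and Cre13.g566000, at a median of 47.8% of the ZT 3 mean at ZT 6 and only 16.7% at ZT 21.

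**Figure D4:**
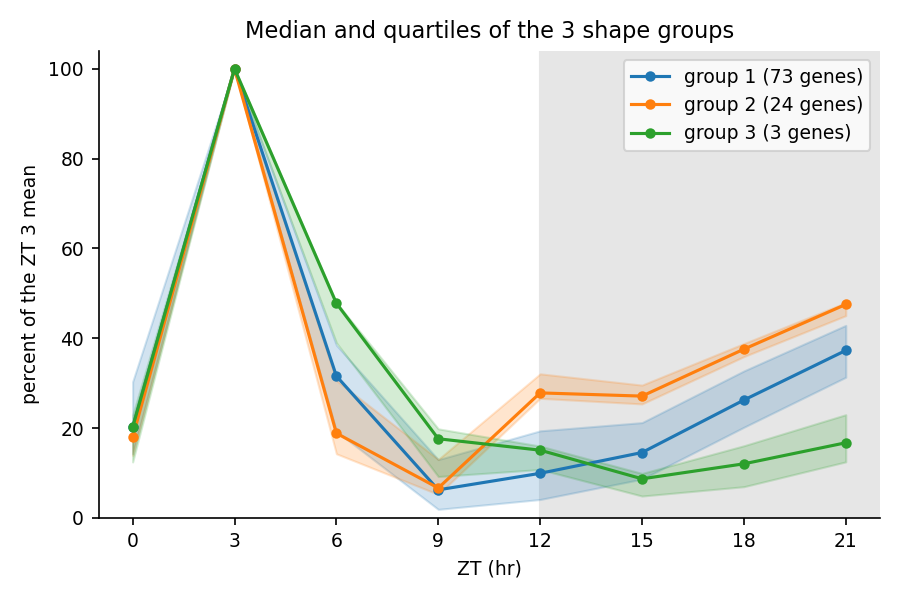
Percent of the ZT 3 mean against ZT in hr for the 3 groups of members by shape, with medians as lines, quartiles as bands and the dark period in grey. At ZT 12 the second group stands at 27.8% and the first at 9.91%, and the third group alone has its second highest level at ZT 6.

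Few members carried an annotation. The study's domain trees were used here only in part, for 137 families, and these hold 13 of the 100 members beside 18.1% of the genes past the mean filter. The study's list of known cycling genes, taken from earlier work, holds 1 member, CAH1 (Cre04.g223100, chromosome 4, 1849051 to 1853299). In the study's own data CAH1 did not pass the cutoff of either of its methods for calling cycling genes. CAH1 encodes a carbonic anhydrase of the periplasmic space, which interconverts carbon dioxide and bicarbonate and serves carbon supply to photosynthesis. Its level was 2.13 and 2.50 FPKM at ZT 0, 51.6 and 46.6 at ZT 3, 17.4 and 12.3 at ZT 6, 0.538 and 0.239 at ZT 9, 2.90 and 3.45 at ZT 12, 0.464 and 0.537 at ZT 15, 1.02 and 0.790 at ZT 18, and 3.70 and 4.36 at ZT 21. It was thus high at ZT 3 and ZT 6 only, with a small separate maximum at ZT 12. The neighbouring gene Cre04.g223050 (chromosome 4, 1843536 to 1847845), of the same family, had 10.0 and 11.1 FPKM at ZT 3 and a ratio of 2.79, but its mean of 2.09 FPKM kept it out of the ranking. Reads shared by these related neighbours may be split between them by the mapping, so both values are uncertain. The remaining gene of that family, Cre09.g415700, had 45.1 and 52.9 FPKM at ZT 3 and a ratio of 1.53.

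Each of the other annotated members is described singly, since in most of these families most genes past the mean filter were not highest at ZT 3, and no enrichment was tested. The class III aminotransferase Cre03.g158000 had 250 and 265 FPKM at ZT 3, and Cre17.g734200, of the class I and II aminotransferases, had 57.1 and 58.4 FPKM. Of the 11 class I and II aminotransferase genes past the mean filter, 7 were highest at ZT 3, and their median ratio was 1.25. Cre07.g334800, with a ferredoxin-type iron-sulfur domain that carries electrons, had 126 and 131 FPKM at ZT 3 and 1.37 and 1.58 at ZT 9. In that family 5 of 6 genes past the mean filter were highest at ZT 3, with a median ratio of 1.31. Cre12.g517150, of the thioredoxin family of disulfide reductases, had 71.7 and 80.3 FPKM at ZT 3 and 11.3 and 11.2 at ZT 9. It was the 1 member among 31 thioredoxin family genes past the mean filter, of which 7 were highest at ZT 3 and whose median ratio was 0.596. The glutathione peroxidase family, whose enzymes reduce peroxides, gave Cre03.g197750 with 18.6 and 16.8 FPKM at ZT 3 and 4.22 and 4.67 at ZT 9. Cre14.g620300, of the class I glutamine amidotransferases, had 24.2 and 24.8 FPKM at ZT 3, and the ABC transporter family member Cre07.g339700 had 48.9 and 45.8 FPKM. Among the 137 families, the short-chain dehydrogenases alone had 2 members, Cre01.g015350 and Cre03.g172000, out of 14 family genes past the mean filter with a median ratio of 0.603. Cre03.g172000 had 44.1 FPKM in both ZT 3 libraries and 5.52 and 5.90 at ZT 9.

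The study's function lists with a phase of ZT 3 that were used here contained 0 members. Only 100 of the 5011 genes past the mean filter are members, so lists this short could hold 0 at that share. These lists hold only functions whose phase was best predicted from promoter elements, and not all functions the paper placed at ZT 3. They cover cell wall, nucleolus, translation, rRNA binding, both subunits of the cytosolic ribosome and the thylakoid lumen, with some lists used here only in part. Of their 65 genes past the mean filter, 38 were highest at ZT 3, but their median ratio was 1.01 and their highest 1.70, below the ratio of every member. The 8 thylakoid lumen genes past the filter were all highest at ZT 3, with a median ratio of 1.47. The median ratio of all 5011 genes was 0.659. Of the study's expression clusters of that phase, only the best predicted were likewise used. Cluster 11 held Cre06.g307500 (187 and 196 FPKM at ZT 3) and Cre17.g715250 (140 and 134 FPKM). Cluster 69 held Cre13.g566000 (15.6 and 17.8 FPKM), while clusters 34 and 42 held 0. The families of chaperones used here, which help proteins fold, held 0 members, although 87 members have no family assigned. Families of these sizes could also hold 0 at the overall share of members. Of the 8 Hsp70 genes past the filter 1 was highest at ZT 3, with a ratio of 1.07. Among 4 chaperonin 10 genes 3 were highest at ZT 3, with ratios up to 1.62, and among 13 TCP-1/chaperonin 60 genes 3 were, with ratios up to 1.54. The 3 Hsp90 genes had ratios up to 0.789, and 0 of them were highest at ZT 3. The 22 DnaJ genes past the filter had a median ratio of 0.716, although Cre02.g110300 just outside the threshold is one of them.

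The members were spread over the genome. Chromosome 12 held 17 of them, where 11.7% of the genes past the mean filter lie. Chromosomes 1 and 6 held 11 each, beside 9.52% and 9.02% of those genes. Scaffolds 19, 26, 41 and 56, outside the chromosomes, held 1 each. The paper reports leaving out gene models on such fragments, although the deposited values include these. No member was directly next to another. The closest were Cre12.g519100 and Cre12.g519200, with 1 gene model and 9222 bp between them. These had different shapes, Cre12.g519100 with 22.2 and 21.6 FPKM at ZT 12 and 21.6 and 21.7 at ZT 9, and Cre12.g519200 with 62.1 and 49.8 FPKM at ZT 12 and 10.7 and 11.7 at ZT 9. The median span of the members' gene models was 3152 bp, beside 3428 bp for all genes past the filter.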

How the data were processed

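RNA of 16 cultures was sequenced from stranded libraries. Reads were aligned by the authors to version 4.3 of the genome using TopHat, with 1 hit allowed per read, and Cufflinks gave their FPKM for each gene model. Neither program's version is given in the sources used here, nor whether strand was used in counting. The deposited FPKM were multiplied by 1 factor per library (0.687 to 1.01) to a common 75th percentile, the scaling the paper used. A deposited table of 50 normalized genes gave these factors to within 0.0109%. Fragments behind each value were recovered from the Cufflinks confidence limits, and were within 0.05 of a whole number for 100% of values under 300 fragments. They describe counting error only. The replicates of a time point were sequenced in separate lanes of 8 libraries, and the lane of each library is not given in the sources used here. Titles were used where the ZT 6 file letters differ.

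Time points were compared on log2(FPKM + 1) in R 4.3.3 by linear models of limma 3.58.1, so that differences of low genes are understated, with 8 time points as a factor, a variance trend, no replicate term and a filter of a mean of at least 1 FPKM. Ranking, grouping by shape (scipy 1.17.1) and plots (matplotlib 3.10.9) were done in Python 3.11.15, using pandas 2.3.3 and numpy 2.4.6.

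The members, gene lists and tests were chosen with earlier results of these data known. Named genes were the 10 largest ratios, the 5 highest ZT 3 means, members in the study's tables, lists and domain families, the 2 largest called changes in each direction of each comparison, and the pair of genes on either side of the threshold. Of the 15 loci in the study's list of known cycling genes, 14 matched a gene model as printed. Of the members, 84 matched a locus in the RefSeq table of assembly v5.5, which carries no symbols; coordinates are those of the deposited files. Domain families were named after their Pfam accession. Alternatives were other scalings, pseudocounts, filters, no variance trend, a replicate block, and leaving out libraries. Sequences and promoter motifs were not analysed here.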

Additional observations from a re-analysis of the deposited data

How the results depend on the processing

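Between 70 and 98 of the 100 members were chosen again under other pseudocounts, scalings and filters, with 73 for FPKM as deposited, 70 without a filter on the mean and 98 for median-ratio scaling. Leaving out a library or a whole replicate kept 89 to 100. FPKM as deposited moved 3 counts by over 1.5 times, to 30 higher and 39 lower at ZT 6 against ZT 0 and to 7 lower at ZT 15 against ZT 12. Without replicate B of ZT 0, 4 members were higher at ZT 0 against ZT 21, and 4 to 7 were over all libraries left out. A time point with 1 library was then assumed to vary like the others. The 20 differences named from the comparisons kept their direction and their call under all 24 alternatives. Letters A and B mark no shared culture or day in the labels. Deviations of libraries with the same letter correlated between time points at -0.27 to 0.33 (over 0.1 in 10 of 28 pairs). The letters were not treated as pairs, and effects shared by some libraries, such as a lane, were not tested. With the replicate block, 87 members were lower at ZT 0 against ZT 21, 60 higher at ZT 6 against ZT 0, 99 lower at ZT 9 against ZT 6, 80 higher at ZT 12 against ZT 9, 47 higher at ZT 15 against ZT 12 and 97 higher at ZT 21 against ZT 15. With 2 cultures per time point, p-values measure the spread between these cultures only. Depth limits the lowest values, since the least covered member had 7 fragments in its lowest library.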
